A study of Mus musculus with 24 samples.

Results

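The comparison described here is DKO against WT group 1 innate lymphoid cells (ILC1) of mice, sorted from small-intestinal lamina propria. It takes 6 of the 24 bulk RNA-seq libraries of the series, 3 labelled DKO and 3 labelled WT, and every gene of the count table, chosen by their labels and not by their values. Of 55487 genes in the table, 21286 passed the filter on low counts and were tested. DKO mice carried Cre recombinase under control of Vav1 together with floxed Nr1d1 and Nr1d2. WT mice were littermates that also carried the floxed alleles, and are labelled WT although their alleles are floxed. All mice were 8 to 12 weeks old. Vav1-driven Cre is active throughout the blood lineages, so the loss was not limited to ILC1. The labels do not give the time of day of sampling, nor say that each library is a different animal. P-values therefore measure the spread between these libraries.

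Nr1d1 and Nr1d2 encode the nuclear receptors REV-ERBα and REV-ERBβ, which bind heme and repress transcription. In the circadian clock they act opposite to the ROR receptors at shared response elements, and they repress Arntl (BMAL1), Npas2, Clock, Nfil3 and their own genes. The clock activators BMAL1 and CLOCK drive the period, cryptochrome and Ciart repressors and the PAR bZIP factors Dbp, Tef and Hlf through E-boxes, and PAR bZIP factors in turn act at D-boxes. ILC1 are tissue lymphocytes without rearranged antigen receptors that depend on T-bet, carry the receptors NKp46 and NK1.1, and make interferon gamma. ILC3 are the related lymphocytes that answer to interleukin 23.

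Total counts were 22364038 to 56290447 per library in DKO ILC1 and 12763228 to 41078295 in WT ILC1. WT library 2 stood apart from the other 5. It was the shallowest, and 9.39% of its counts fell on ribosomal RNA genes, against 0.877% to 2.89% in the other 5. The first principal component of the 6 libraries, with 36.3% of the variance, placed it at 210 and the other 5 between -51.7 and -30.9. The edgeR calls in ILC1, and those of its difference from the other populations, were therefore also computed without it. The DESeq2 and limma voom results and the promoter motif shares below were computed with all libraries only. Library values are given in the order of libraries 1, 2 and 3, as CPM, the counts divided by library size and scaled by the trimmed mean of M values. A gene is called when its adjusted p in edgeR's quasi-likelihood test is under 0.05, and "rose" and "fell" are used of called genes.

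The labelled cell type was checked against its markers. Ncr1, which encodes NKp46, averaged 1423 CPM in DKO ILC1 and 1614 CPM in WT ILC1, Klrb1c, which encodes NK1.1, 868 and 934 CPM, and Tbx21, which encodes T-bet, 252 and 222 CPM. Eomes, which marks conventional NK cells, averaged 0.441 CPM in DKO ILC1 and 0.9797 CPM in WT ILC1. In the sorted population labelled NKp46, WT cells averaged 824, 129 and 91.4 CPM of Ncr1, Klrb1c and Tbx21. Of the other ILC1 markers examined, Il2rb, Ifng, Itga1 and Tnfsf10 averaged more in WT ILC1 than in WT NKp46 cells. Cd200r1 did not (63.1 against 66.1 CPM). The sorted ILC1 thus carried Ncr1, Klrb1c and Tbx21 at higher levels than NKp46 cells, with Eomes near 0. T cell receptor and CD3 transcripts were also present in both genotypes and are given below.

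In DKO ILC1, 166 genes rose and 59 fell. The 225 called genes are 1.06% of the genes tested, 0.78% higher and 0.277% lower, and 2874 genes had an unadjusted p under 0.05. The median log2 fold change of all genes tested was 0.00. In 161 of the higher and 53 of the lower genes the libraries of the genotypes did not overlap. Selection by a small p favours lack of overlap, and the share over all genes tested is not given, so these counts add no support. Of the called genes 196 were protein coding, and 85 of those that rose did so by over 2 on the log2 scale, against 16 of those that fell by more than that. Without WT library 2, 126 of the higher and 44 of the lower genes were called again in the same direction, and 110 genes (91 higher and 19 lower) were called however 1 ILC1 library was left out. With the ILC1 libraries fitted alone, which leaves 4 residual degrees of freedom in place of 16, 11 genes were called, all of them among the 225. DESeq2 called 722 genes, 223 of the 225 among them in the same direction. limma voom with quality weights called 85, of which 64 were among the 225 in the same direction. Of the called genes described below, limma voom did not call Nr1d2, Dbp, Dlc1, Cxcl3, Wnt3, Ak7, Il33, Stab2, Mmp25, Lta, Il23r, Arg1, Gpat3 and Acat1. It did not call Timp3, Gstm1, Mmp23, Itga4, Sms, Pfkl, Mmp9, Serpine2, Tfam, Ccdc184 or Add3 either, whose calls also depended on single libraries. The count in edgeR was 145 without DKO library 3 and 665 without WT library 3.

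**Figure D1:**
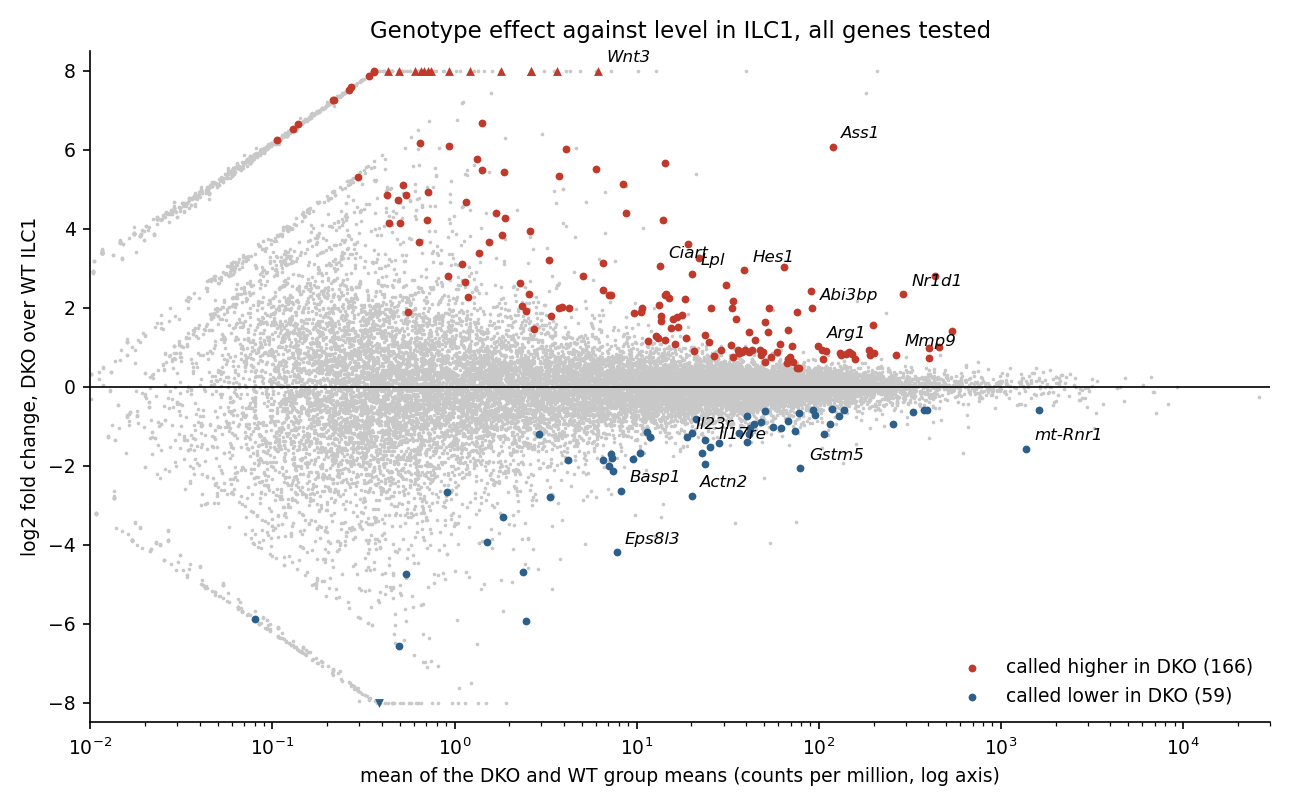
Log2 fold change of DKO over WT ILC1 (vertical axis) against the mean of the group means in CPM (horizontal log axis) for the 21286 genes tested, 1 point per gene. Red points are the 166 genes called higher and blue points the 59 called lower; triangles mark called genes whose fitted value lies past 8, and grey points past 8 are drawn at 8.

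The deleted genes themselves had more counts in DKO ILC1, not fewer. Nr1d1 (chr11:98767932-98775333, minus strand, mm10) had 458, 484 and 515 CPM in DKO libraries, against 104, 49.8 and 133 CPM in WT libraries. The groups did not overlap (log2 fold change 2.34, SE 0.21, adjusted p = 8.8e-07). Nr1d2 (chr14:18204054-18239127, minus strand) had 36.1, 112 and 107 CPM in DKO libraries, against 12.96, 18.7 and 32.5 CPM in WT libraries. DKO library 1 stood only slightly above the highest WT library (log2 fold change 1.99, SE 0.37, adjusted p = 0.0055; without WT library 2 adjusted p = 0.03). The table counts reads over a whole gene, and the sources used here do not give the exons between the loxP sites, so these counts check neither the deletion nor the genotype labels. Nr1d1 overlaps the 3′ end of Thra, a thyroid hormone receptor gene on the other strand (chr11:98740638-98769006), and the strand setting of the counting is not given. Thra had 24.7, 16.1 and 25.6 CPM in DKO libraries, against 8.22, 19.2 and 12.96 CPM in WT libraries, which overlapped (log2 fold change 0.73, adjusted p = 0.19). Without WT library 2, the highest WT library for this gene, the log2 fold change was 1.06 with an adjusted p of 0.021. Vav1, whose promoter drives the Cre, did not pass the test (248 ± 20.8 CPM in DKO ILC1 and 244 ± 60.6 CPM in WT ILC1, SD, n = 3 each).

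Among the clock genes, the E-box-driven repressor Ciart, the period gene Per3, the activator Npas2 and the PAR bZIP factors Dbp and Hlf rose, while the core pair Arntl and Clock did not pass the test. Of 8 clock repressors 2 rose and none fell, of 8 PAR bZIP and output genes 2 rose and none fell, and of 6 activators 1 rose and 1 fell. Over all genes tested 0.78% rose and 0.277% fell. The lists were chosen with earlier results of these data known, so these counts do not test them. The median log2 fold changes of these lists were 0.42, 0.47 and 0.05, against 0.00 for all genes tested. Ciart, a repressor of the BMAL1 and CLOCK pair, had 24.1, 21.4 and 26.1 CPM in DKO libraries, against 3.48, 2.09 and 2.998 CPM in WT libraries. Every DKO library stood above every WT library (log2 fold change 3.04, SE 0.28, adjusted p = 8.8e-07). Per3, a period family member, had 16.8, 18.8 and 29.3 CPM in DKO libraries, against 8.32, 2.97 and 3.91 CPM in WT libraries (log2 fold change 2.07, SE 0.29, adjusted p = 2.4e-04). Npas2, a partner of BMAL1 that can take the place of CLOCK, had 22.4, 19.2 and 32.2 CPM in DKO libraries, against 0.774, 10.8 and 4.88 CPM in WT libraries, and WT library 2 was its highest WT library. Its call (log2 fold change 2.23, SE 0.48, adjusted p = 0.019) was lost without DKO library 3 (adjusted p = 0.087) and was firmer without WT library 2 (log2 fold change 3.10, adjusted p = 3.8e-04).

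Dbp, the albumin D-box binding factor, had 27.6, 24.9 and 38.1 CPM in DKO libraries, against 11.3, 4.98 and 3.10 CPM in WT libraries (log2 fold change 2.22, SE 0.41, adjusted p = 0.0047). The related factor Hlf had 40.9, 31.6 and 49.7 CPM in DKO libraries, against 12.8, 14.1 and 4.37 CPM in WT libraries (log2 fold change 1.99, SE 0.34, adjusted p = 0.0019). The third PAR bZIP factor, Tef, had 10.2, 33.8 and 35.4 CPM in DKO libraries, against 10.6, 10.5 and 11.6 CPM in WT libraries. DKO library 1 lay just below all 3 WT libraries, and the gene did not pass the test (log2 fold change 1.28, adjusted p = 0.12, and 0.028 by DESeq2). Per2 had 8.34, 17.9 and 9.16 CPM in DKO libraries, against 0.967, 0.161 and 6.45 CPM in WT libraries, without overlap, and was not called (log2 fold change 2.15, SE 0.74, adjusted p = 0.21).

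Arntl, the textbook REV-ERB target, had 47.1, 61.1 and 54.4 CPM in DKO libraries, against 24.1, 25.2 and 62.5 CPM in WT libraries. WT library 3 was the highest of all 6, and the difference was not detectable (log2 fold change 0.54, SE 0.28, adjusted p = 0.41). Clock, Per1, Cry1, Cry2, Bhlhe40, Rora, Usp2, Wee1 and Nampt were not called either, with log2 fold changes from -0.10 for Clock to 0.62 for Cry1. Nfil3, a repressor that opposes the PAR bZIP factors and is needed for ILC development, had 82.6, 71.7 and 78.4 CPM in DKO libraries, against 48.02, 88.6 and 37.05 CPM in WT libraries. WT library 2 exceeded all DKO libraries, and without it the gene was called higher (log2 fold change 0.87, adjusted p = 0.0078), against 0.43 and an adjusted p of 0.4 with it. Tsc22d3, the glucocorticoid-induced leucine zipper, was likewise called without that library alone, in the lower direction (log2 fold change -0.73, adjusted p = 0.016).

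**Figure D2:**
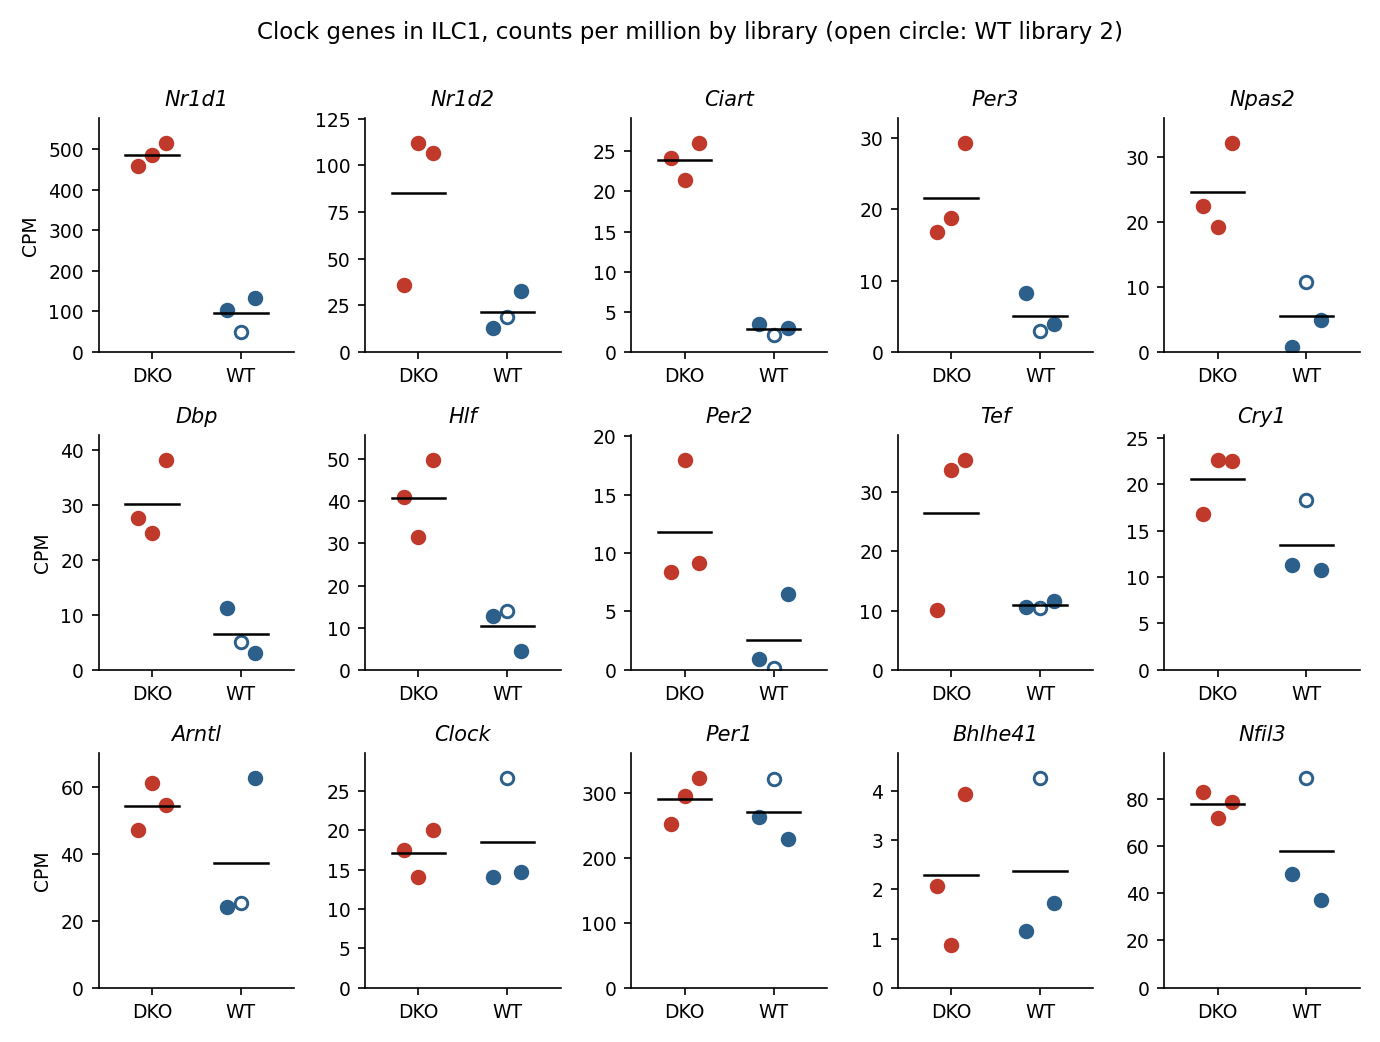
CPM of 15 clock genes in each ILC1 library, DKO on the left and WT on the right of each panel, with linear axes that start at 0. Points are libraries, bars are group means, and the open circle is WT library 2. Nr1d1, Nr1d2, Ciart, Per3, Npas2, Dbp, Hlf and Per2 have no overlap, and for Nfil3 WT library 2 is the highest point.

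Promoter windows from RefSeq (GRCm38.p6, 250 bases before to 50 bases after the start of transcription) were searched on both strands for the core of the ROR and REV-ERB response element (TAGGTCA or TGGGTCA), the E-box (CACGTG) and the D-box (TTATGTAA or TTACGTAA). The core was found in 11 of 117 genes that rose and had a window (9.4%), in 5 of 51 that fell (9.8%) and in 6.62% of the genes tested. The E-box was found in 18.8% of the genes that rose, 9.8% of those that fell and 1324 of the 12079 genes tested that had a window. The D-box was found in 2.56% of the genes that rose, in 0 of 51 that fell and in 0.936% of the genes tested. A match is a description of the letters and not a binding site. None of the called clock genes held the core in this window. The 3 stretches that follow were chosen after the values were seen, since they show the elements of the clock in promoters of called genes: the E-boxes of Ciart, the D-boxes of Per3 and the ROR and REV-ERB core of Il23r, which fell. All are on the minus strand, at chr3:95882252-95882359, chr4:151044801-151044885 and chr6:67491901-67491937, with motifs in capitals.
Ciart: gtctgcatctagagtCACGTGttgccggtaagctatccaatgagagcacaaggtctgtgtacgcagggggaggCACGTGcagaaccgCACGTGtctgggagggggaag
Per3: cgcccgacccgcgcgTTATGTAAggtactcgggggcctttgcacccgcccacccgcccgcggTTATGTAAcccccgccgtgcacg
Il23r: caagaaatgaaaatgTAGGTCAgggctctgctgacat
The Ciart motifs begin 116, 58 and 44 bases before the start of transcription, those of Per3 205 and 158 bases before it, and that of Il23r 67 bases before it.

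Outside the clock, several of the genes with the smallest adjusted p rose with no overlap between the genotypes. Ass1, the enzyme that joins citrulline and aspartate on the way to arginine, had 239, 233 and 235 CPM in DKO libraries, against 0.613, 3.78 and 6.05 CPM in WT libraries. The gene was thus close to silent in WT ILC1 and at an even level in DKO ILC1 (log2 fold change 6.07, SE 0.57, adjusted p = 1.0e-06). Tspan4, a tetraspanin, had 122, 106 and 115 CPM in DKO libraries, against 16.9, 9.64 and 15.2 CPM in WT libraries (log2 fold change 3.03, SE 0.28, adjusted p = 1.0e-06). Rhod, a small GTPase of endosomes, had 50.8, 50.95 and 58.98 CPM in DKO libraries, against 14.1, 12.5 and 13.7 CPM in WT libraries (log2 fold change 1.99, SE 0.18, adjusted p = 8.8e-07).

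Abi3bp, a secreted matrix protein, had 135, 145 and 160.3 CPM in DKO libraries, against 45.1, 31.2 and 34.6 CPM in WT libraries (log2 fold change 1.99, SE 0.19, adjusted p = 1.9e-06). Chad, which encodes the matrix protein chondroadherin, had 320.1, 283 and 291 CPM in DKO libraries, against 121, 86.9 and 94.8 CPM in WT libraries (log2 fold change 1.56, SE 0.15, adjusted p = 2.2e-06). Of 27 tested members of the list of matrix proteins, proteases and inhibitors, 4 rose (Abi3bp, Mmp9, Timp3 and Serpine2) and none fell, with a median log2 fold change of 0.10. This is 14.8% higher, against 0.78% over all genes, in a list chosen with earlier results of these data known. Only Abi3bp of the 4 was called again without WT library 2. Timp3, an inhibitor of metalloproteinases, had 21.3, 0.812 and 2.03 CPM in DKO libraries, against 0, 0 and 0.254 CPM in WT libraries, and DKO library 1 carried most of the difference (adjusted p = 0.036). The call was lost without DKO library 1 and without any 1 of the 3 WT libraries (largest adjusted p = 0.22). The same DKO library had 36.4 CPM of Lyve1, a marker of lymphatic endothelium that was at 0 in the other 5 libraries. The part of lymphatic endothelium in the Timp3 result was not tested.

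Among other genes that rose, Hes1, a repressor that Notch signalling induces, had 78.4, 64.03 and 64.7 CPM in DKO libraries, against 11.2, 12.5 and 3.73 CPM in WT libraries (log2 fold change 2.94, SE 0.31, adjusted p = 4.5e-06). Srgap3, a GTPase-activating protein, had 93.2, 122 and 144 CPM in DKO libraries, against 25.2, 40.02 and 32.95 CPM in WT libraries (log2 fold change 1.88, SE 0.19, adjusted p = 4.2e-06). Dlc1, another GTPase-activating protein, averaged 6.02 ± 2.40 CPM in DKO ILC1 and 0.598 ± 0.451 CPM in WT ILC1 (log2 fold change 3.21, adjusted p = 5.3e-05). Cxcl3, a chemokine that attracts neutrophils, had 46.03, 26.2 and 33.6 CPM in DKO libraries, against 3.84, 3.78 and 1.35 CPM in WT libraries, with no overlap (log2 fold change 3.61, SE 0.43, adjusted p = 2.6e-05). Plpp3, a phosphatase of bioactive lipid phosphates, had 18.9, 17.2 and 14.5 CPM in DKO libraries, against 0.193, 0 and 1.80 CPM in WT libraries (log2 fold change 4.40, SE 0.53, adjusted p = 3.5e-05).

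Some genes were silent or nearly so in WT ILC1. In 23 of the called genes the 3 WT libraries held 0 counts, and in 2 the 3 DKO libraries did. Spry1, an inhibitor of receptor tyrosine kinase signalling, had 1.79, 7.84 and 6.18 CPM in DKO libraries and 0 counts in WT libraries. Against a floor of 3 counts over the WT group it was at least 161-fold higher (adjusted p = 6.0e-07). Crybb2, a crystallin best known from the lens, had 9.65, 4.59 and 7.54 CPM in DKO libraries and 0 counts in WT libraries, at least 194-fold higher (adjusted p = 3.4e-06). Wnt3, which encodes a secreted Wnt ligand, had 14.1, 11.5 and 10.9 CPM in DKO libraries, against 0, 0.0804 and 0.0254 CPM in WT libraries, a total of 1354 and 2 counts (adjusted p = 2.3e-04). Ak7, an adenylate kinase, had 12.7, 9.21 and 13.4 CPM in DKO libraries, against 0.516, 0.161 and 0.0762 CPM in WT libraries (log2 fold change 5.50, SE 0.61, adjusted p = 1.2e-05). Il33, which encodes an alarmin cytokine that stromal and endothelial cells make, had 13.95, 1.65 and 0.208 CPM in DKO libraries and 0 counts in WT libraries (at least 91.2-fold higher, adjusted p = 0.0036). Most of its counts came from DKO library 1, the library with Lyve1 transcripts, and whether they came from ILC1 was not tested. In these bulk samples fewer cells of a type and less RNA per cell cannot be told apart.

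**Figure D3:**
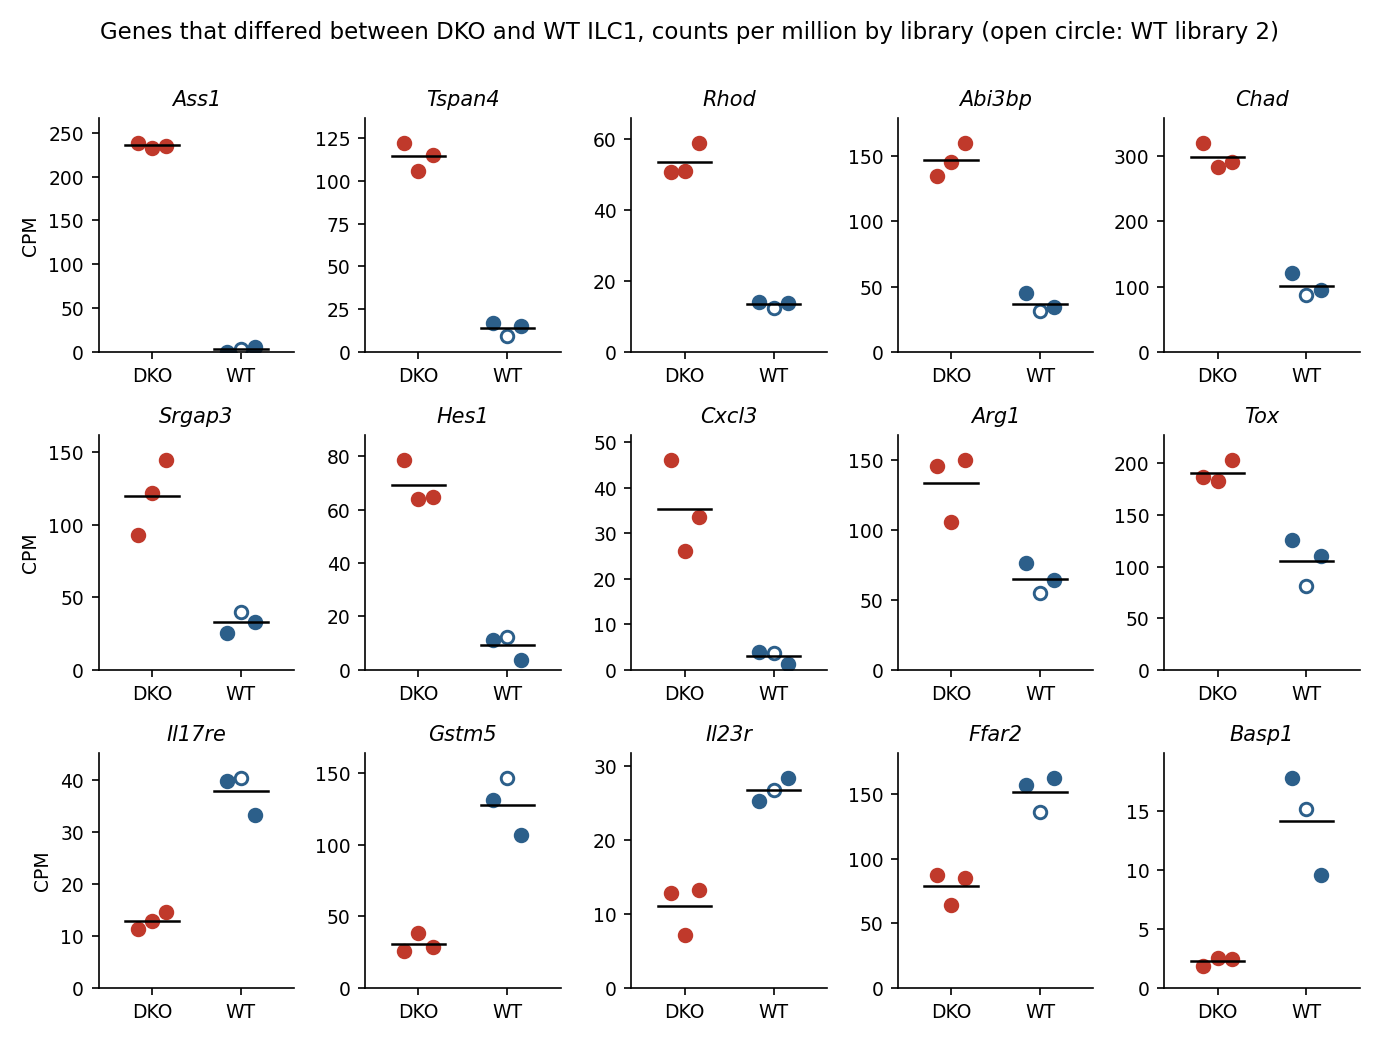
CPM of 15 genes called in DKO against WT ILC1, by library, DKO on the left and WT on the right of each panel, with linear axes that start at 0. Bars are group means and open circles WT library 2; in the upper 10 genes every DKO library lies above every WT library, and in the lower 5 genes below it.

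Of the genes that fell, Il17re had the smallest adjusted p. It encodes a subunit of the receptor for interleukin 17C. It had 11.4, 12.8 and 14.6 CPM in DKO libraries, against 39.8, 40.3 and 33.1 CPM in WT libraries. The groups were well apart, and the values within each lay close together (log2 fold change -1.54, SE 0.13, adjusted p = 6.0e-07). Gstm5 (chr3:107895821-107898686), a glutathione S-transferase of the mu class, had 25.6, 37.99 and 28.2 CPM in DKO libraries, against 131, 147 and 107 CPM in WT libraries (log2 fold change -2.07, SE 0.19, adjusted p = 1.0e-06). Its neighbour Eps8l3 (chr3:107877229-107892900), a relative of the actin regulator EPS8, had 0, 0.812 and 1.37 CPM in DKO libraries, against 18.3, 11.4 and 14.6 CPM in WT libraries (log2 fold change -4.19, SE 0.59, adjusted p = 2.2e-04). Gstm1, of the same class, went the other way, with 30.6, 29.9 and 20.2 CPM in DKO libraries, against 14.96, 9.32 and 18.8 CPM in WT libraries. That call (adjusted p = 0.049) was lost without DKO library 1 or 2 or WT library 1 or 2 (largest adjusted p = 0.21), and how the counting shared reads among the similar Gstm genes is not given.

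Further genes that fell included Basp1, a membrane-bound protein known from neurons, with 1.84, 2.52 and 2.45 CPM in DKO libraries, against 17.7, 15.1 and 9.55 CPM in WT libraries (log2 fold change -2.63, SE 0.27, adjusted p = 3.4e-06). Actn2, an actin cross-linker best known from muscle, had 6.24, 5.82 and 3.47 CPM in DKO libraries, against 24.5, 61.4 and 19.3 CPM in WT libraries. WT library 2 was the highest, and without it the log2 fold change was -2.09 in place of -2.76, still called (adjusted p = 3.1e-05). Stab2, a scavenger receptor for hyaluronan, had 0.673, 0.756 and 1.01 CPM in DKO libraries, against 8.55, 5.63 and 3.35 CPM in WT libraries (log2 fold change -2.80, SE 0.35, adjusted p = 4.5e-05). The membrane-anchored metalloproteinases Mmp25 and Mmp23 fell by 2.13 and 1.70 on the log2 scale, the call of Mmp23 being lost without any 1 of DKO libraries 1, 2 or 3 or WT library 1 (largest adjusted p = 0.1). Hs6st2, which sulfates heparan sulfate, and the leucine-rich repeat gene Lingo4 fell by 1.96 and 1.42 on the log2 scale. mt-Rnr1, the mitochondrial 12S ribosomal RNA, had 820.3, 598 and 663 CPM in DKO libraries, against 1891, 2921 and 1367 CPM in WT libraries (log2 fold change -1.57, SE 0.21, adjusted p = 1.3e-04). WT library 2, which also had the largest share of ribosomal RNA, was the highest, and without it the log2 fold change was -1.23 (adjusted p = 3.3e-04). None of the 13 mitochondrially encoded protein genes was called by edgeR (median log2 fold change 0.28), 3 had an unadjusted p under 0.05, and DESeq2 called mt-Co3 higher.

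Genes of the type 1 programme were then examined against the 1.06% called over all genes. None of 25 tested NK receptor genes, none of 19 genes of cytotoxic granules and death ligands and none of 19 cytokine receptor genes of type 1 cells passed the test in edgeR, with median log2 fold changes of -0.18, -0.26 and -0.13. At an unadjusted p under 0.05 there were 2, 7 and 3 genes in these lists. DESeq2 called Klrg1, Gzma and Ifnar2 lower, 1 in each list, and limma voom called Klra1, Klra9, Ctsw and Gzma lower. Without WT library 2, edgeR called 1 NK receptor gene and 1 granule gene lower. The list medians were then -0.38, -0.38 and -0.35, against 0.02 for all genes. Ncr1 had 1545, 1468 and 1257 CPM in DKO libraries, against 2019, 793 and 2029 CPM in WT libraries, and WT library 2 held less than the DKO libraries while the other WT libraries held more (log2 fold change -0.18, SE 0.28). Tbx21 had 76.9, 386 and 293 CPM in DKO libraries, against 105, 276 and 286 CPM in WT libraries, with library 1 low in both genotypes (log2 fold change 0.18, SE 0.51). Ifng had 259.9, 196 and 156 CPM in DKO libraries, against 225, 125 and 145 CPM in WT libraries, which overlapped (log2 fold change 0.30, SE 0.46, adjusted p = 0.82).

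Granzymes are proteases of cytotoxic granules. Gzma had 63.2, 64.98 and 29.9 CPM in DKO libraries, against 123, 182 and 158 CPM in WT libraries. The groups did not overlap, yet the adjusted p was 0.12 (log2 fold change -1.55, SE 0.45), and DESeq2 called it lower (log2 fold change -1.59, adjusted p = 0.022). Gzmb had 269, 258 and 99.4 CPM in DKO libraries, against 474, 308 and 421 CPM in WT libraries, without overlap (adjusted p = 0.44). For Gzmc the values were 83.3, 72.1 and 47.3 CPM in DKO libraries, against 174, 187 and 112 CPM in WT libraries, again without overlap (adjusted p = 0.36). Prf1, which encodes perforin, averaged 322 ± 62.7 CPM in DKO ILC1 and 292 ± 89.8 CPM in WT ILC1 (SD, n = 3 each; adjusted p = 0.85). The chemokine gene Ccl4 had 2547, 2329.6 and 1511 CPM in DKO libraries, against 5557, 3489 and 4121 CPM in WT libraries, without overlap and not called by edgeR (adjusted p = 0.45). limma voom called it lower, together with Ccl3 and Ccl5. In the granule list 5 of 19 tested genes were lower without overlap and 1 was higher. In the list of type 1 cytokines and chemokines 3 of 15 were lower without overlap and 4 were higher. The share of all genes tested without overlap is not given here, so lack of overlap alone is not read as a difference. Gzmc and Ccl4 were chosen after their values were seen.

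Lta and Tox were the called members of the type 1 cytokine and transcription factor lists. Lta, which encodes lymphotoxin α, had 43.2, 45.8 and 64.98 CPM in DKO libraries, against 24.7, 27.2 and 29.2 CPM in WT libraries (log2 fold change 0.93, SE 0.15, adjusted p = 0.0014), and it was the only 1 that edgeR called of 15 cytokine and chemokine genes (list median -0.22). In this list DESeq2 also called Il2 higher and Tgfb1 lower, and limma voom called Ccl3, Ccl4 and Ccl5 lower and not Lta. Tox, a transcription factor of ILC development, had 187, 183 and 203 CPM in DKO libraries, against 125, 81.2 and 111 CPM in WT libraries (log2 fold change 0.85, SE 0.13, adjusted p = 3.8e-04), and it was the only 1 that edgeR called of 22 transcription factors (list median -0.13). DESeq2 and limma voom called Tox as well, and both called Id2 lower. Lta and Tox were called in all 6 edgeR fits that leave out 1 ILC1 library. Of 20 integrin and residency genes edgeR called only Itga4, which pairs with β1 and β7 integrins. It had 15.5, 15.3 and 15.5 CPM in DKO libraries, against 29.1, 25.6 and 26.4 CPM in WT libraries (log2 fold change -0.81, SE 0.19, adjusted p = 0.034), but without any 1 of DKO libraries 1, 2 or 3 or WT library 1 the call was lost (largest adjusted p = 0.16). Itga1, the CD49a marker of ILC1, averaged 26.9 ± 9.09 CPM in DKO ILC1 and 70.5 ± 37.1 CPM in WT ILC1 (SD, n = 3 each) and was not called by edgeR (adjusted p = 0.1), while DESeq2 called it lower.

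Of 24 tested genes of the ILC3 programme 4 fell, among them Il17re, Il23r and Ffar2, and 1 rose, with a list median of -0.43. This is 16.7% lower and 4.17% higher, against 0.277% and 0.78% over all genes. The list was chosen with earlier results of these data known, so these shares do not test it. DESeq2 also called Blk higher and Il17a lower, and limma voom called Slc6a20a lower. Il23r, the interleukin 23 receptor subunit, had 12.7, 7.17 and 13.2 CPM in DKO libraries, against 25.2, 26.8 and 28.3 CPM in WT libraries. No library overlapped (log2 fold change -1.28, SE 0.20, adjusted p = 7.6e-04). Ffar2 encodes a short-chain fatty acid receptor. It had 87.3, 63.8 and 84.8 CPM in DKO libraries, against 157, 136 and 162 CPM in WT libraries (log2 fold change -0.95, SE 0.14, adjusted p = 5.2e-04). Gpr183, an oxysterol receptor that guides lymphocytes, rose, with 515, 494 and 492 CPM in DKO libraries, against 365, 249 and 293 CPM in WT libraries (log2 fold change 0.73, SE 0.12, adjusted p = 0.0018). Il22 had 63.5, 36.03 and 43.2 CPM in DKO libraries, against 213, 75.1 and 33.03 CPM in WT libraries, with WT library 1 far above the other 5, and was not called (adjusted p = 0.22). Il17a was at 0 in the DKO libraries and at 0, 0.0804 and 1.70 CPM in the WT libraries.

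In arginine and amino acid metabolism Ass1 and Arg1 rose and Sms fell, of 27 tested. This is 7.41% higher and 3.70% lower, against 0.78% and 0.277% over all genes. The lists were chosen with earlier results of these data known, so such shares describe the members and do not test the list. Arg1, which splits arginine into ornithine and urea, had 146, 106 and 149.9 CPM in DKO libraries, against 76.8, 55.1 and 64.1 CPM in WT libraries (log2 fold change 1.03, SE 0.15, adjusted p = 3.0e-04). Sms, spermine synthase, averaged 40.2 ± 2.47 CPM in DKO ILC1 and 61.3 ± 5.65 CPM in WT ILC1 (SD, n = 3 each; log2 fold change -0.61, SE 0.14, adjusted p = 0.037). This call was lost without any 1 of DKO libraries 1, 2 or 3 or WT library 1 (largest adjusted p = 0.17). Of 39 lipid genes edgeR called 2 higher (5.13%), and DESeq2 also called Fabp5 and Plin2 higher. Lpl, lipoprotein lipase, had 39.2, 29.4 and 37.9 CPM in DKO libraries, against 5.45, 2.25 and 6.56 CPM in WT libraries (log2 fold change 2.86, SE 0.41, adjusted p = 3.0e-04). Gpat3, an acyltransferase of triglyceride synthesis, had 0.673, 1.26 and 0.226 CPM in DKO libraries and 0 counts in WT libraries (at least 17.4-fold higher, adjusted p = 0.0019).

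In glycolysis 25 of 27 tested genes had a log2 fold change above 0, but edgeR called only Pfkl, the liver-type phosphofructokinase. DESeq2 also called Pfkp, the platelet type, and limma voom called neither. Pfkl had 235, 242 and 251 CPM in DKO libraries, against 164, 87.6 and 167 CPM in WT libraries, WT library 2 being the lowest (log2 fold change 0.80, and 0.55 without that library, adjusted p = 0.013 and 0.011). Leaving out DKO library 2 or DKO library 3 ended the call (largest adjusted p = 0.064). The list median was 0.19, and 0.11 without WT library 2, against 0.00 and 0.02 for all genes. None of 28 oxidative phosphorylation, 20 cholesterol synthesis or 20 heme and iron genes was called by edgeR, DESeq2 or limma voom, and 4, 3 and 1 of them had an unadjusted p under 0.05. Sod2, the mitochondrial superoxide dismutase, had 176, 191 and 203 CPM in DKO libraries, against 125, 66.9 and 118 CPM in WT libraries (log2 fold change 0.88, SE 0.16, adjusted p = 0.0055). Acat1, a mitochondrial thiolase of ketone and isoleucine metabolism, had 192, 179 and 219 CPM in DKO libraries, against 128, 108 and 127 CPM in WT libraries (log2 fold change 0.70, SE 0.11, adjusted p = 0.0011).

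Of 35 interferon-stimulated genes edgeR called only Oasl2, and DESeq2 also called Ifi204 higher. Oasl2 had 105, 76.1 and 116 CPM in DKO libraries, against 44.95, 30.3 and 34.6 CPM in WT libraries (log2 fold change 1.43, SE 0.20, adjusted p = 1.8e-04). None of 31 proliferation genes (list median 0.26), 20 NF-kB genes or 24 apoptosis regulators was called by edgeR. Of these lists 7, 2 and 6 genes had an unadjusted p under 0.05. DESeq2 called Plk1 higher and Bcl2 and Bcl2a1b lower, and limma voom called Bcl2a1d lower. Without WT library 2, edgeR called 1 NF-kB gene higher.

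**Figure D4:**
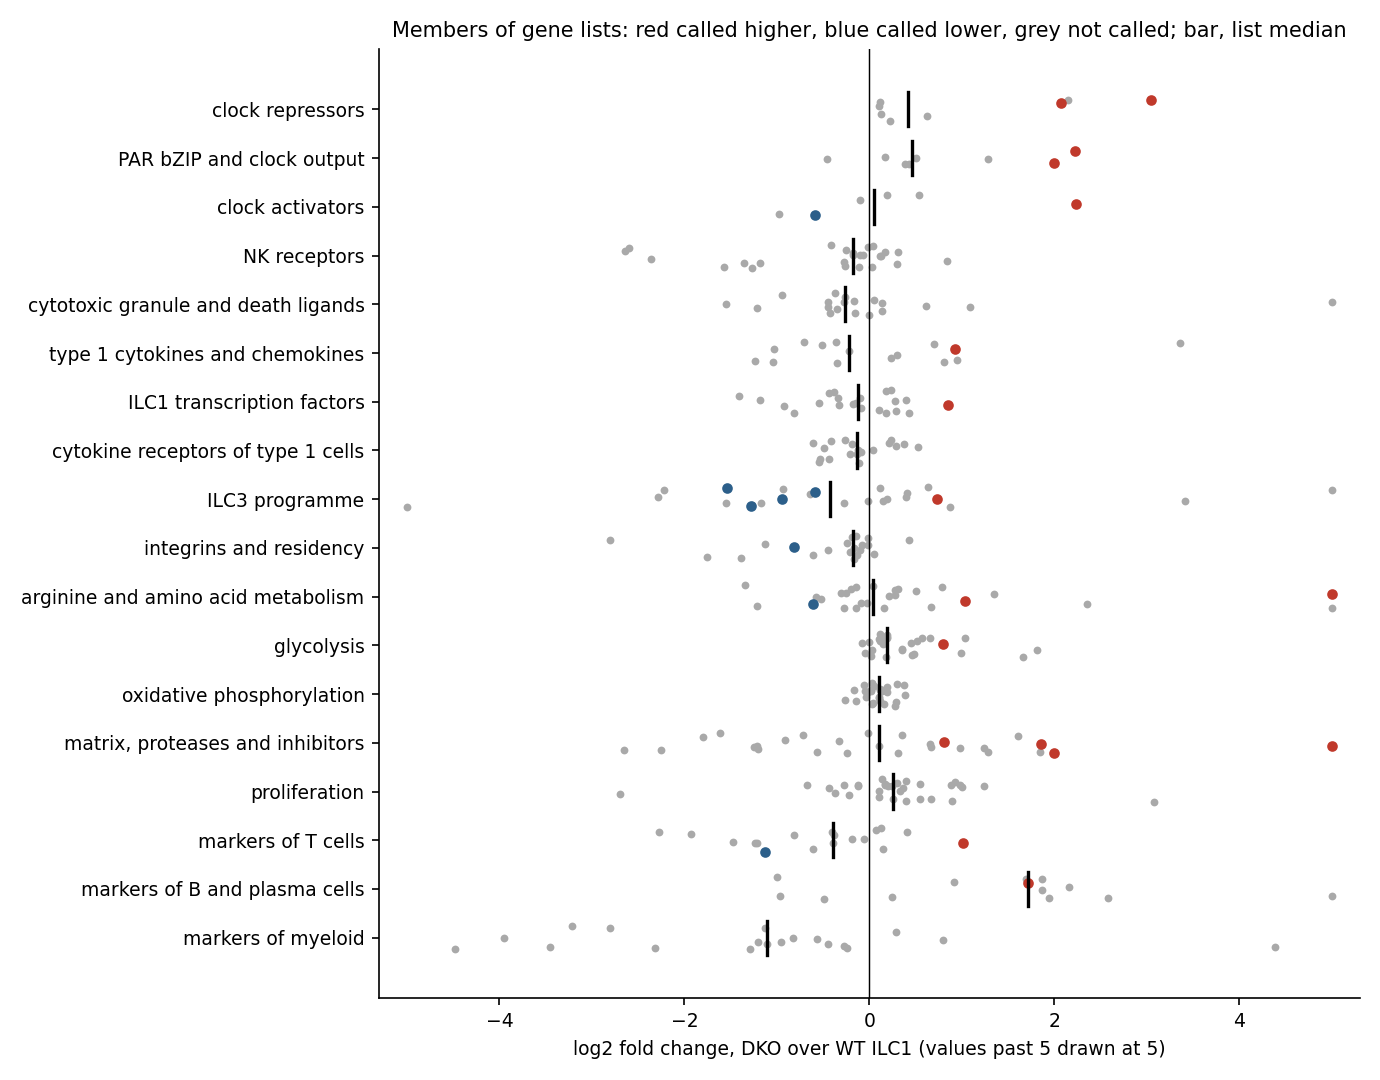
Log2 fold change of DKO over WT ILC1 for the tested members of 18 gene lists, 1 point per gene, with values past 5 in either direction drawn at 5. Red points are called higher, blue points called lower, grey points not called, and black bars are list medians; the 8 clock repressors lie above 0, and the ILC3 programme has 4 blue points.

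Transcripts of other cells were measured beside these results. Of 18 T cell markers Trgc1 rose and Cd3g fell, with a list median of -0.40. The summed T cell markers were at 2278, 2021 and 1951 CPM in DKO libraries, against 2349.9, 1748 and 2094 CPM in WT libraries. Cd3g had 65.7, 31.3 and 41.9 CPM in DKO libraries, against 101, 84.3 and 118 CPM in WT libraries (adjusted p = 0.037, lost without any 1 of DKO libraries 2 or 3 or WT libraries 1 or 3). DESeq2 also called Cd3d, Cd3e and Trbc1 lower, and limma voom Cd3d and Cd3e. Cd8b1 reached at most 0.0322 CPM in any ILC1 library and Cd5 at most 0.321 CPM. Trgc1, a T cell receptor γ constant segment, had 632, 616 and 594 CPM in DKO libraries, against 367, 188 and 358 CPM in WT libraries (log2 fold change 1.01, SE 0.17, adjusted p = 0.0017), and reads of the similar γ constant segments may be shared. Of 13 tested B and plasma cell markers Sdc1, the syndecan known as CD138, rose, with 48.6, 46.95 and 67.4 CPM in DKO libraries, against 20.7, 7.31 and 20.9 CPM in WT libraries (log2 fold change 1.71, SE 0.24, adjusted p = 1.9e-04). The list median was also 1.71, with 10 members above 0 and 3 below 0. The plasma cell transcript Jchain had 95.97, 43.98 and 125 CPM in DKO libraries, against 8.55, 41.6 and 19.7 CPM in WT libraries. Igha, the constant region of IgA, had 388, 171 and 539 CPM in DKO libraries, against 39.02, 158 and 104 CPM in WT libraries, and neither was called. The summed list was at 1375, 935 and 1739.9 CPM in DKO libraries, against 709.9, 588 and 811 CPM in WT libraries, and the part of plasma cells in the Sdc1 result was not tested.

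Myeloid markers had lower values in DKO ILC1, with a list median of -1.11. Of 19 tested, edgeR called none with all libraries and 1 higher without WT library 2. With all libraries 6 had an unadjusted p under 0.05, all lower, and DESeq2 called Csf3r and Lyz2 lower. Their sum was 1265, 1065 and 992 CPM in DKO libraries, against 1695, 1799 and 1352 CPM in WT libraries, most of it Fcer1g, which ILC1 and NK cells also express. S100a8, of neutrophils and monocytes, had 10.2, 9.60 and 0.156 CPM in DKO libraries, against 28.6, 260.4 and 16.7 CPM in WT libraries, WT library 2 being far above the rest, and Lyz2 had 18.04, 17.02 and 14.98 CPM in DKO libraries, against 89.9, 129 and 30.5 CPM in WT libraries. Mmp25, which neutrophils also express, fell beside them, and the part of myeloid cells in that result was not tested. Of 18 epithelial and 22 stromal or endothelial markers edgeR called none, and 7 and 4 had an unadjusted p under 0.05. DESeq2 called Pdgfrb higher and Thy1 lower, and without WT library 2 edgeR called 1 stromal or endothelial marker higher.

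The genotype effect in ILC1 was then set against the mean effect in the other 3 sorted populations, labelled NKp46, CCR6 and DN. The series title calls these ILC3, and the label DN is not explained. A difference below 0 means a lower log2 fold change in ILC1. Of the 21286 genes, 171 (0.803%) differed, 98 (0.46%) with a value above 0 and 73 (0.343%) below it. This count was 107 without DKO library 3 and 484 without WT library 3. Of the 225 genes called in ILC1, 80 were called in the same direction in all 3 other populations and 84 in none of them. The difference itself was called for 55 of the 225, with a larger effect in ILC1 in 46 of them, and for 35 of the 84. These genes were selected by their effect in ILC1, which also enters the difference, and selection of this kind favours larger effects in ILC1. The counts of 46 and 35 therefore do not measure how particular the response was to ILC1. Ass1, Tspan4 and Ciart were among those without a called difference, with log2 fold changes in the other populations of 6.40 in NKp46, 6.71 in CCR6 and 5.23 in DN for Ass1.

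Mmp9 and Lpl changed less in ILC1 on the log2 scale, and both had more CPM in WT ILC1 than in the other WT populations. Mmp9, which encodes gelatinase B, had 348, 311 and 361 CPM in DKO libraries, against 175, 185 and 223 CPM in WT libraries of ILC1 (log2 fold change 0.81, adjusted p = 0.032), and all single leave-outs but that of WT library 3 ended this call (largest adjusted p = 0.12). In the other populations it averaged 854 to 903 CPM in DKO cells and 5.59 to 18.4 CPM in WT cells. The difference was -5.77 ± 0.24 (SE), adjusted p = 1.3e-12. For Lpl the difference was -4.38 ± 0.50 (SE), adjusted p = 2.9e-05. Lpl averaged 35.5 CPM in DKO ILC1 and 4.75 CPM in WT ILC1. In the other populations it averaged 38.9 (CCR6) to 113 CPM (NKp46) in DKO cells and 0.231 to 0.869 CPM in WT cells. Its difference on the log2 scale thus rests in part on these low WT values. Srgap3 and Acat1 also differed in this direction (-3.09 ± 0.23 (SE), adjusted p = 5.1e-08 for Srgap3, and -1.26 ± 0.13 (SE), adjusted p = 9.7e-06 for Acat1), as did Abi3bp (-0.96 ± 0.22 (SE), adjusted p = 0.032). The log2 fold change of Abi3bp was 1.99 in ILC1, close to 2.19 in NKp46, beside 3.84 in CCR6 and 2.82 in DN.

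Bhlhe41, which encodes the clock repressor DEC2, did not change in ILC1 by more than its spread. It had 2.06, 0.868 and 3.94 CPM in DKO libraries, against 1.16, 4.26 and 1.73 CPM in WT libraries (log2 fold change 0.11, SE 0.47). In the other populations it averaged 89.9 to 270.2 CPM in DKO cells and 0.538 to 1.36 CPM in WT cells. The difference was -7.63 ± 0.60 (SE), adjusted p = 1.3e-07.

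Other genes had a log2 fold change in ILC1 that differed from the mean of the other populations in the upward direction. Arg1 differed by 1.15 ± 0.17 (SE), adjusted p = 9.3e-04. Its log2 fold changes elsewhere were -0.07 in NKp46, -0.25 in CCR6 and -0.03 in DN. Gpr183 differed by 0.89 ± 0.14 (SE), adjusted p = 0.0017, Sdc1 by 2.18 ± 0.27 (SE), adjusted p = 8.9e-05, and Lta by 0.77 ± 0.17 (SE), adjusted p = 0.033. The part of plasma cells in the Sdc1 difference was not tested. Serpine2, a serine protease inhibitor, had 23.1, 11.6 and 11.1 CPM in DKO libraries, against 3.10, 3.38 and 5.996 CPM in WT libraries of ILC1. Its log2 fold changes elsewhere were -1.35 in NKp46, -2.46 in CCR6 and -2.02 in DN. It differed by 3.79 ± 0.52 (SE), adjusted p = 2.9e-04. Its call within ILC1 was lost in 5 of the 6 fits that leave out a library (adjusted p = 0.043 with all libraries, and at most 0.22 without 1). In the downward direction, Il17re fell more in ILC1, with a difference of -1.30 ± 0.15 (SE), adjusted p = 3.0e-05. Spry1, at 0 counts in WT ILC1, differed in the upward direction (adjusted p = 2.0e-05 for the difference). It also rose in NKp46 (log2 fold change 1.59, adjusted p = 0.014) and CCR6 (1.97, adjusted p = 0.0019). In DN it was not called (0.97, adjusted p = 0.21). Among NK receptors, Klrb1c differed by 1.27 ± 0.19 (SE), adjusted p = 0.0012, and its log2 fold change was -0.11 in ILC1, beside -0.41 in NKp46, -2.32 in CCR6 and -1.41 in DN. Il23r and Ffar2 did not differ detectably (-0.07 ± 0.23 (SE), adjusted p = 0.98 for Il23r, and 0.04 ± 0.16 (SE), adjusted p = 0.99 for Ffar2).

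**Figure D5:**
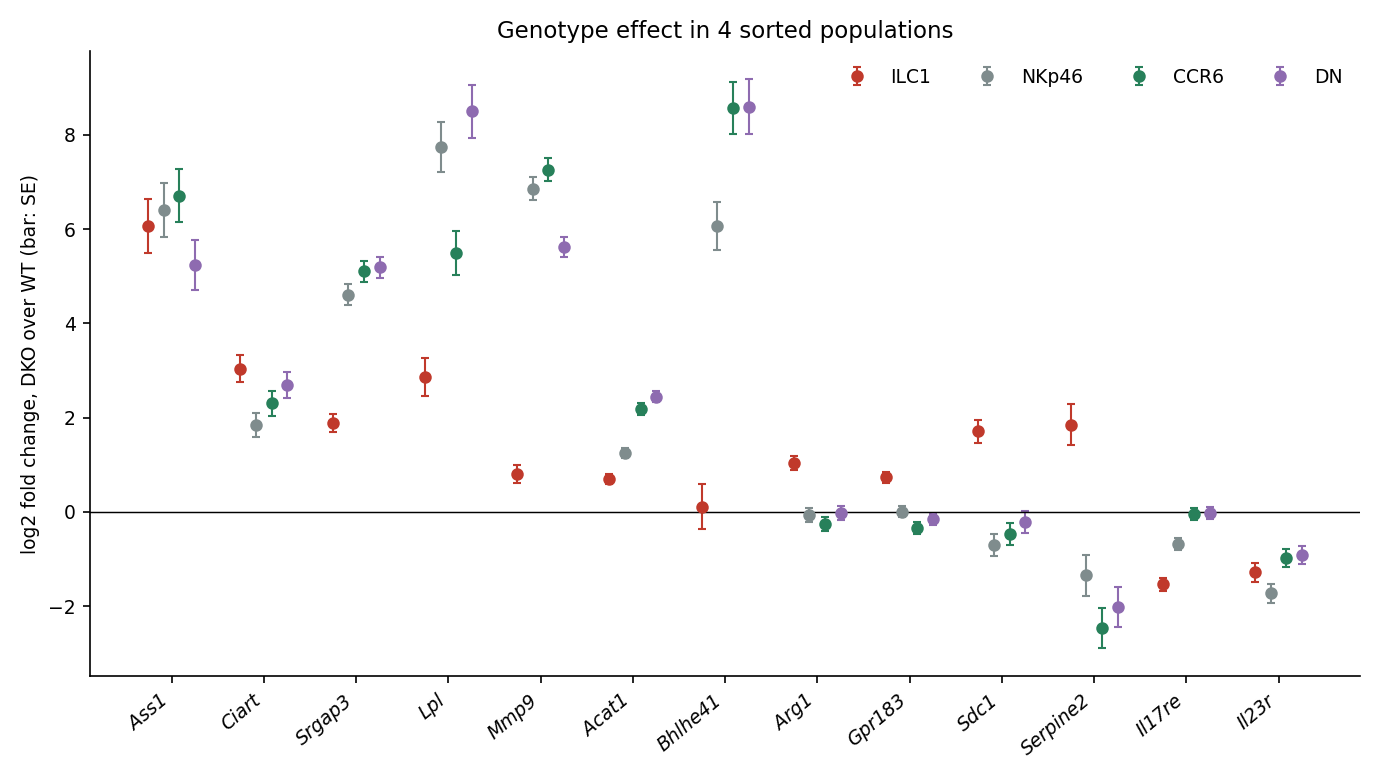
Log2 fold change of DKO over WT in ILC1 and in the NKp46, CCR6 and DN populations for 13 genes, with bars of 1 SE. Mmp9, Lpl, Srgap3, Acat1 and Bhlhe41 have lower values in ILC1 than in the other 3, and Arg1, Gpr183, Sdc1 and Serpine2 higher ones.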

How the data were processed

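Bulk RNA-seq libraries were made from 10 ng of RNA with 12 to 15 PCR cycles, per the labels' protocols. The authors deposited 1 table of raw read counts per gene for all 24 libraries. According to the submitters' processing notes the build was mm10. They list, without roles, featureCounts 2.0.3 and STAR 2.7.9a among other tools. The tool that made the table, its strand setting and the annotation: not given in the sources used here. Of 55774 lines, 168 gene IDs stood on more than 1 with identical counts and were kept once, which left 55487 genes. No column was left unused (0).

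edgeR 4.0.16 (R 4.3.3) was fitted with robust quasi-likelihood, TMM factors and filterByExpr to the means of all 8 groups, with 16 residual degrees of freedom. P-values were adjusted by Benjamini-Hochberg over 21286 genes, with a threshold of 0.05. All 4 populations share 1 estimate of the spread. CPM are counts over TMM-scaled library sizes, and SD is over 3 libraries. Alternatives were DESeq2 1.42.0, limma 3.58.1 voom with quality weights, other scaling and filters, a replicate block, ILC1 libraries alone and each ILC1 library left out. The code was tested on simulated data. WT library 2, with 12763228 counts, gives the least precise values. Floors cover counting error only.

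Named genes were Nr1d1, Nr1d2, Vav1 and Thra; up to 12 each way with the largest fold change and up to 12 with the smallest adjusted p, among called genes without overlap and with at least 5 CPM in the higher group (no predicted genes, pseudogenes, antigen receptor segments or sex-linked genes); up to 6 called members of each list; up to 6 each way called in the difference and in ILC1; the clock lists; and fixed ILC1 and ILC3 genes. Uncalled list members named otherwise, such as Gzmc, Ccl4, Il22 and the genes that only DESeq2 or limma voom called, were chosen after their values were seen. Members and lists were chosen with earlier results of these data known. Within ILC1, DKO and WT libraries with the same replicate number did not deviate together (correlations 0.0533, 0.00114 and 0.0417), so these were not treated as pairs. Whether libraries of different populations with the same number come from the same animals is not given and was not tested. The main fit treats all 24 libraries as independent. Gene positions are from the GENCODE mouse annotation of GRCm38 (mm10), and promoters are from RefSeq. Some genes are not reported here.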

Additional observations from a re-analysis of the deposited data

Results flagged for a closer look

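For 11 genes called in DKO against WT ILC1, the genotype effect in ILC1 differed from the mean effect in the NKp46, CCR6 and DN populations, by a test of the difference itself in edgeR. All values are ILC1 minus that mean, on the log2 scale. The difference was above 0 for Sdc1 at 2.18, for Ccdc184 at 1.84 and for Spry1 at 9.35. The Spry1 value rests on 0 counts in WT ILC1 and so depends on the prior count, and no fold is read from it. Ccdc184 fell less in ILC1, with log2 fold changes of -1.03 in ILC1 and -3.20 in NKp46, -2.39 in CCR6 and -3.01 in DN.

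The difference was below 0 for Mmp9 at -5.77, Lpl at -4.38, Srgap3 at -3.09 and Acat1 at -1.26, which rose less in ILC1. It was also below 0 for Basp1 at -1.58, Il17re at -1.30, Add3 at -1.27 and St8sia4 at -0.76, which fell in ILC1. St8sia4, which encodes a polysialyltransferase, had 71.6, 77.97 and 68.6 CPM in DKO libraries, against 113, 121 and 123 CPM in WT libraries in ILC1, without overlap, and log2 fold changes of -0.06 in NKp46, 0.38 in CCR6 and -0.16 in DN. Add3, an adducin of the membrane skeleton, had 58.1, 46.3 and 39.8 CPM in DKO libraries, against 70.3, 92.01 and 102 CPM in WT libraries, and its call in ILC1 was lost without DKO library 2, DKO library 3 or WT library 3 (largest adjusted p = 0.15). Its log2 fold change was -0.88 in ILC1, beside -0.89 in NKp46, 1.98 in CCR6 and 0.10 in DN. Add3 thus fell alike in ILC1 and NKp46, and CCR6 made most of the difference.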

How the results depend on the processing

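Against 225 genes called in ILC1, the ILC1 libraries alone gave 11, and 17 with WT library 2 also left out. DESeq2 called 722 (56.2% higher, against 73.8% in edgeR) and limma voom 85 (54.1% higher). Leaving out 1 ILC1 library gave 145 to 665, lowest without DKO library 3 and highest without WT library 3, and 264 without WT library 2. Against 171 genes called in the difference, the filter left off gave 368, DESeq2 577 and limma voom 70, and single leave-outs gave 107 to 484. The ILC1 libraries alone give no value for the difference. With the replicate block 222 and 174 genes were called. Of 67 named genes that were called, 56 lost their call with the ILC1 libraries alone, 32 under limma voom and 3 (Timp3, Gtdc1 and Gstm1) with the replicate block. None of these 67 changed sign under the alternatives run, while 11 of 26 named genes that were not called did, among them Clock, Bhlhe41, Ncr1, Tbx21 and Eomes. The cause of these changes was not tested. With 3 libraries a group and 12763228 counts in WT library 2, genes that differ little or vary between libraries were not detectable.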

Other observations

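Of 25 genes of mitochondrial quality and biogenesis edgeR called only Tfam, which packages mitochondrial DNA. DESeq2 called it too, with Map1lc3a lower, and limma voom called neither. Tfam had 49.5, 38.4 and 52.9 CPM in DKO libraries, against 26.8, 18.2 and 33.03 CPM in WT libraries (log2 fold change 0.85, SE 0.20, adjusted p = 0.035), and the call was lost without any 1 of DKO libraries 1 or 3 or WT libraries 1 or 2 (largest adjusted p = 0.16). edgeR called none of 14 TGF-beta signalling genes, 21 checkpoint and costimulatory receptors, 23 immediate early genes or 29 ribosomal protein genes. In these lists 4, 1, 3 and 5 genes had an unadjusted p under 0.05, and DESeq2 called Tgfb1, Tgfbr2 and Jund lower.

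Several ILC1 genes passed the test in edgeR with WT library 2 left out and not with it. With all libraries DESeq2 called Klrg1, Id2 and Cd3e lower, and limma voom called Id2 and Cd3e lower. Klrg1, an inhibitory receptor, had 8.57, 10.8 and 6.81 CPM in DKO libraries, against 47.6, 7.63 and 22.03 CPM in WT libraries, and was called lower by edgeR without that library (adjusted p = 0.0061, against 0.11 with it). Id2, which encodes an inhibitor of E proteins that all ILC need, had 3422, 2803 and 3058 CPM in DKO libraries, against 4969, 3029.6 and 4571 CPM in WT libraries. Its log2 fold change was -0.62 without WT library 2 (adjusted p = 0.0032, against 0.16 with it). For Cd3e, a chain of the T cell receptor complex, it was -1.47 without that library (adjusted p = 0.015, against 0.077 with it). These 3 genes were chosen after their values were seen. In all, 94 genes were called without WT library 2 that were not called with it.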
